A study of Mus musculus with 12 samples.

Results

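The clustered protocadherin genes encode cell surface proteins of neurons and sit side by side in 3 tandem clusters, alpha, beta and gamma. All rows of the hippocampal count table whose symbol is that of an alpha, beta or gamma protocadherin were taken, which gave 57 of 54427 listed genes. These are 11 Pcdha genes, 22 Pcdhb genes, 12 Pcdhga genes, 7 Pcdhgb genes and the 5 C-type genes Pcdhac1, Pcdhac2, Pcdhgc3, Pcdhgc4 and Pcdhgc5. RNA came from hippocampal tissue of mice in 4 groups, with 3 libraries in each. WT mice carried neither modification, 5xFAD mice carried the 5xFAD transgenes (a model of amyloid deposition), Ulk1OV mice overexpressed the autophagy kinase ULK1, and 5xFAD;Ulk1OV mice carried both. Age, sex, strain background, the ULK1 construct and its promoter were not given in the sources used here. The labels do not say that libraries of a group came from separate animals, and the p-values therefore cover only spread from library to library.

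Each variable exon of an alpha or gamma protocadherin has its own promoter and is spliced to constant exons shared by its whole cluster, while each beta gene is a single unit without shared constant exons. A neuron uses only a few alpha, beta and gamma A or B genes, chosen with CTCF, cohesin and DNA methylation at the promoters, and adds C-type genes that are used more widely. The proteins bind identical partners on neighbouring membranes, by which branches of one neuron recognise and avoid each other. Tissue RNA averages these choices over many cells, so fewer cells using a gene and less RNA of that gene in each cell cannot be told apart here.

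Library totals ran from 16149992 to 18547132 counts. One library went against its label: 5xFAD;Ulk1OV replicate 3 had 1310 CPM (CPM being counts scaled to a common TMM-adjusted library total) of App, where the other 5 libraries with 5xFAD in their label had 2201 to 2667 CPM and the 6 without it had 1241 to 1493 CPM. Prnp, which separated the labelled groups in the same way, was at 954 CPM in that library against 2067 to 2510 CPM and 900 to 1119 CPM. Ulk1 was at 84.6 to 102 CPM in the 6 libraries labelled Ulk1OV and 63.5 to 86.3 CPM in the others. Because of this library, the edgeR calls and most edgeR fold changes of comparisons that use the 5xFAD;Ulk1OV group are also given without it. The DESeq2 and GC-corrected values include it. Neuronal markers summed to between 4911 and 6322 CPM (8 of 8 genes tested). Choroid plexus markers (8 of 8 tested, none at 0 in every library) ranged from 26.8 to 6303 CPM, with the highest sums in WT replicate 3 and, at 4251 CPM, in Ulk1OV replicate 1.

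On the mouse build GRCm38 (mm10), with the GENCODE M21 annotation, the alpha genes lie on chromosome 18 from 36930184 to 37187661, the beta genes from 37264938 to 37524479 and the gamma genes from 37661793 to 37841873. Because of the shared exons, a median of only 2472 bases of a Pcdha gene's exons was covered by no other gene model, against 3714 bases for Pcdhb genes. In all, 40.0% of Pcdha, 46.6% of Pcdhga, 55.0% of Pcdhgb and 96.9% of Pcdhb exon bases were unshared. No source used here says how reads in shared exons or in near-identical paralogs were counted. The listed gene models Gm42416, Gm37388 and Gm37013, which reach from the alpha into the gamma cluster, have 0 unshared exon bases. They had 0 counts over all libraries, so reads in their shared exons were not counted for them. How reads that fit several paralogs were counted stays unknown, which leaves levels of alpha and gamma genes uncertain. The symbol Pcdha11 stands for 2 gene models in the annotation, and no level per length is given for it. Counts of 54 of the 57 genes were high enough to be tested. Pcdha4 had 9 counts over all libraries, Pcdha8 had 0 to 13 counts per library, and Pcdhga10, which has 0 unshared exon bases, had 2 counts in a single library.

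Together the 57 genes made up 345.5 to 429.0 CPM, or 5857 to 7591 counts per library. Pcdhb genes held the largest share of this sum, with a median of 33.2% over the 12 libraries. C-type genes held 28.9% although they are only 5 genes, Pcdhga genes 22.1%, Pcdhgb genes 10.7% and Pcdha genes 5.39%. These shares sum unequal numbers of genes and are not scaled by exon length, shared or unshared. Of the 54 tested genes, 42 had a mean between 1 and 10 CPM, 10 had 10 CPM or more and 2 had under 1 CPM.

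**Figure D1:**
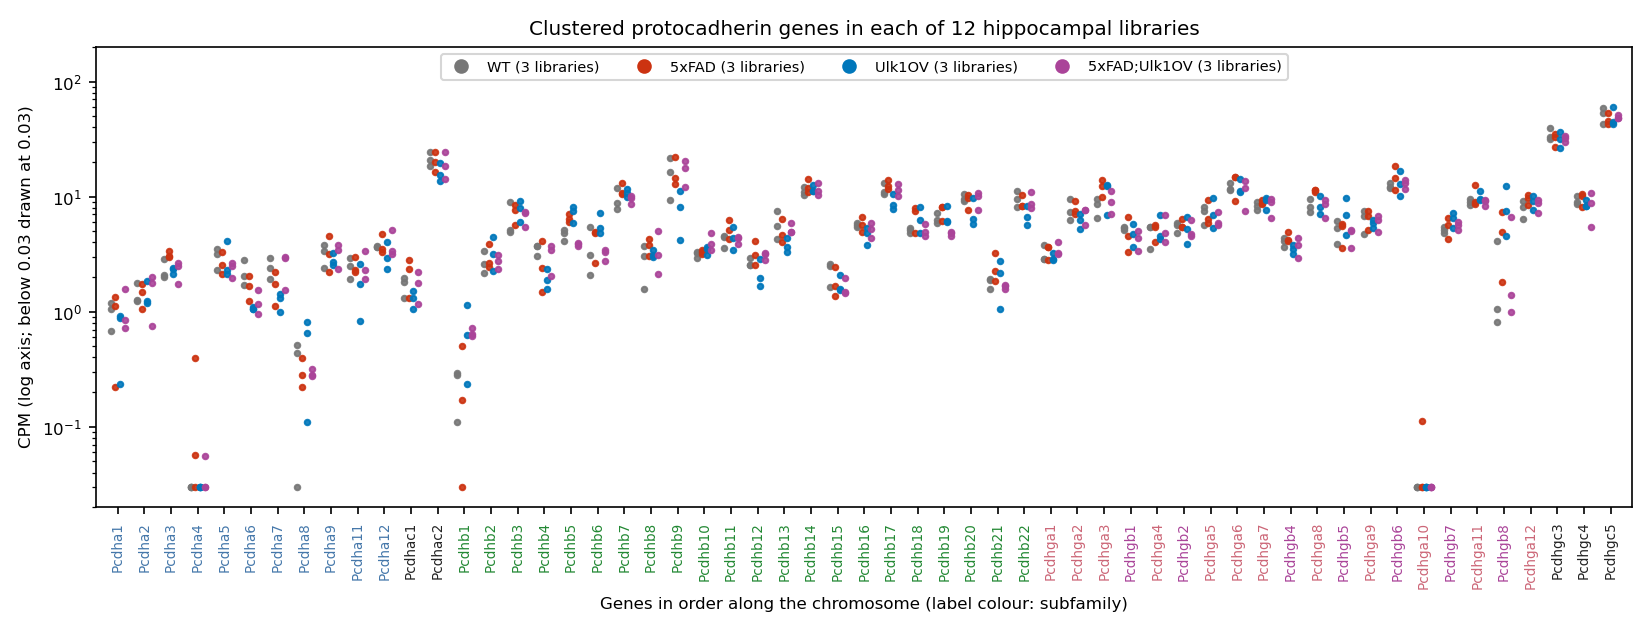
CPM (log axis) of each of the 57 clustered protocadherin genes in order along the chromosome, 1 point per library, coloured by group. The C-type genes Pcdhgc5, Pcdhgc3 and Pcdhac2 stand highest, Pcdhgb8 and Pcdhb9 spread widely between libraries, and Pcdha4 and Pcdhga10 are at or near 0.

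Among the C-type genes, Pcdhgc5 was the most abundant, with 44.2% of their summed level. Its level was 58.9, 53.8 and 42.4 CPM in WT replicates 1 to 3, 53.2, 45.1 and 42.8 CPM in 5xFAD, 60.3, 43.0 and 44.7 CPM in Ulk1OV, and 48.3, 51.6 and 48.4 CPM in 5xFAD;Ulk1OV. Pcdhgc3 measured 39.7, 33.2 and 31.4 CPM in WT, 34.9, 32.8 and 27.1 CPM in 5xFAD, 31.7, 36.7 and 26.5 CPM in Ulk1OV, and 29.7, 32.6 and 33.5 CPM in 5xFAD;Ulk1OV. All 4 groups overlapped for both genes. Pcdhac2, the C-type gene known for its use in serotonergic axons, was at 24.6, 20.9 and 18.5 CPM in WT, 24.3, 20.2 and 16.5 CPM in 5xFAD, 19.5, 13.7 and 15.6 CPM in Ulk1OV, and 24.4, 18.3 and 14.2 CPM in 5xFAD;Ulk1OV. These groups overlapped as well. Markers of serotonergic cell bodies (1 of 3 tested, none at 0 in every library) summed to 0.872 to 2.18 CPM.

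Pcdhgc4, the C-type gene known for its part in the survival of interneurons, had 10.1, 8.61 and 9.07 CPM in WT, 8.20, 10.6 and 10.1 CPM in 5xFAD, 9.42, 8.38 and 8.23 CPM in Ulk1OV, and 8.83, 5.43 and 10.8 CPM in 5xFAD;Ulk1OV. The lowest value, in 5xFAD;Ulk1OV replicate 2, shared its group with the highest. Pcdhac1 was the lowest C-type gene, at 1.82, 1.96 and 1.30 CPM in WT, 2.83, 2.36 and 1.32 CPM in 5xFAD, 1.31, 1.06 and 1.53 CPM in Ulk1OV, and 1.79, 1.17 and 2.23 CPM in 5xFAD;Ulk1OV. Its groups overlapped too.

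The leading genes of the other subfamilies were much lower than Pcdhgc5. Pcdhb9 had the highest mean among beta genes, 14.2 CPM, which was 11.1% of the beta sum. Pcdhgb6 led the gamma B genes with 31.0% of their sum: 13.1, 12.04 and 11.8 CPM in WT, 11.4, 18.6 and 14.4 CPM in 5xFAD, 16.6, 10.2 and 12.9 CPM in Ulk1OV, and 11.6, 13.2 and 13.9 CPM in 5xFAD;Ulk1OV. Pcdhga6 led the gamma A genes with 13.9% of their sum, at 11.7, 13.0 and 11.5 CPM in WT, 14.9, 14.8 and 9.15 CPM in 5xFAD, 10.9, 11.1 and 14.2 CPM in Ulk1OV, and 11.8, 7.46 and 13.6 CPM in 5xFAD;Ulk1OV. Both genes overlapped between all groups. Pcdha12, the alpha gene nearest to the C-type exons, led its subfamily with 17.6% of the sum, at 3.70, 3.65 and 3.63 CPM in WT, 3.505, 3.31 and 4.74 CPM in 5xFAD, 4.06, 2.95 and 2.34 CPM in Ulk1OV, and 5.09, 3.14 and 3.34 CPM in 5xFAD;Ulk1OV. Its WT libraries were nearly equal and lay inside the range of the other groups.

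Levels per length change the order of the genes. Per kilobase of unshared exon, Pcdhgc3 was highest at 17.8 CPM per kb, followed by Pcdhgc5 at 10.7, Pcdhga11 at 7.56 and Pcdhac2 at 6.35 CPM per kb. Subfamily medians on this scale were 6.35 CPM per kb for C-type, 3.24 for Pcdhga, 1.83 for Pcdhgb, 1.19 for Pcdhb and 0.868 for Pcdha genes. Dividing by all exon bases instead gave 3.26, 1.52, 0.967, 1.13 and 0.328 CPM per kb, so beta genes passed gamma B genes when shared exons were counted as length. That scale also divides by shared bases, which are few in Pcdhb exons (96.9% unshared) and many in Pcdhgb exons (55.0% unshared).

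Summed over each subfamily, 25 of 30 pairs of groups overlapped between libraries. The 5 that did not were 1 of 5 for 5xFAD against WT, 1 of 5 for 5xFAD against Ulk1OV and 3 of 5 for 5xFAD;Ulk1OV against 5xFAD. Of all single genes, 19.5%, 15% and 22.2% did not overlap in these pairs. The Pcdhb sum was 128.2 ± 6.81 CPM in WT, 139.8 ± 6.82 CPM in 5xFAD, 118.6 ± 8.09 CPM in Ulk1OV and 126.3 ± 2.67 CPM in 5xFAD;Ulk1OV (mean ± SD, n = 3 each). The 5xFAD libraries (133 to 146 CPM) lay above the Ulk1OV libraries (112 to 127 CPM) and above the 5xFAD;Ulk1OV libraries (125 to 129 CPM), and each of these overlapped WT (121 to 135 CPM). The Pcdhga sum was 83.0 ± 9.91, 95.0 ± 8.45, 86.7 ± 11.2 and 82.0 ± 2.29 CPM in the same order of groups. The C-type sum was 118.8 ± 16.2, 110.8 ± 12.8, 107.2 ± 13.4 and 110.4 ± 2.27 CPM. The groups overlapped for both of these sums, except that the 5xFAD libraries (85.8 to 102 CPM) lay above the 5xFAD;Ulk1OV libraries (79.4 to 83.5 CPM) in the Pcdhga sum. The Pcdha sum was 21.9 ± 1.99, 21.6 ± 1.52, 17.8 ± 3.21 and 20.8 ± 3.09 CPM, again with overlap. The Pcdhgb sum, at 39.5 ± 3.29, 45.0 ± 0.673, 48.3 ± 11.1 and 39.3 ± 2.46 CPM, lay higher in the 5xFAD libraries (44.2 to 45.4 CPM) than in WT (36.1 to 42.7 CPM) and in 5xFAD;Ulk1OV (37.6 to 42.1 CPM). On plain library totals, without TMM scaling, the Pcdhgb sums of 5xFAD and WT overlapped, with 43.56 CPM in 5xFAD replicate 1 and 43.61 CPM in WT replicate 3, and the other 4 pairs stayed apart. Without 5xFAD;Ulk1OV replicate 3, the mean sums of its group were 127.2 CPM for Pcdhb, 81.3 for Pcdhga, 111.1 for C-type, 20.9 for Pcdha and 40.1 CPM for Pcdhgb (n = 2), and the same 5 pairs did not overlap. The 3 of them that use 5xFAD;Ulk1OV then rest on 2 libraries of that group, with which groups separate more easily. Of all single genes, 37.6% then did not overlap in 5xFAD;Ulk1OV against 5xFAD, where it was 22.2% with every library.

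**Figure D2:**
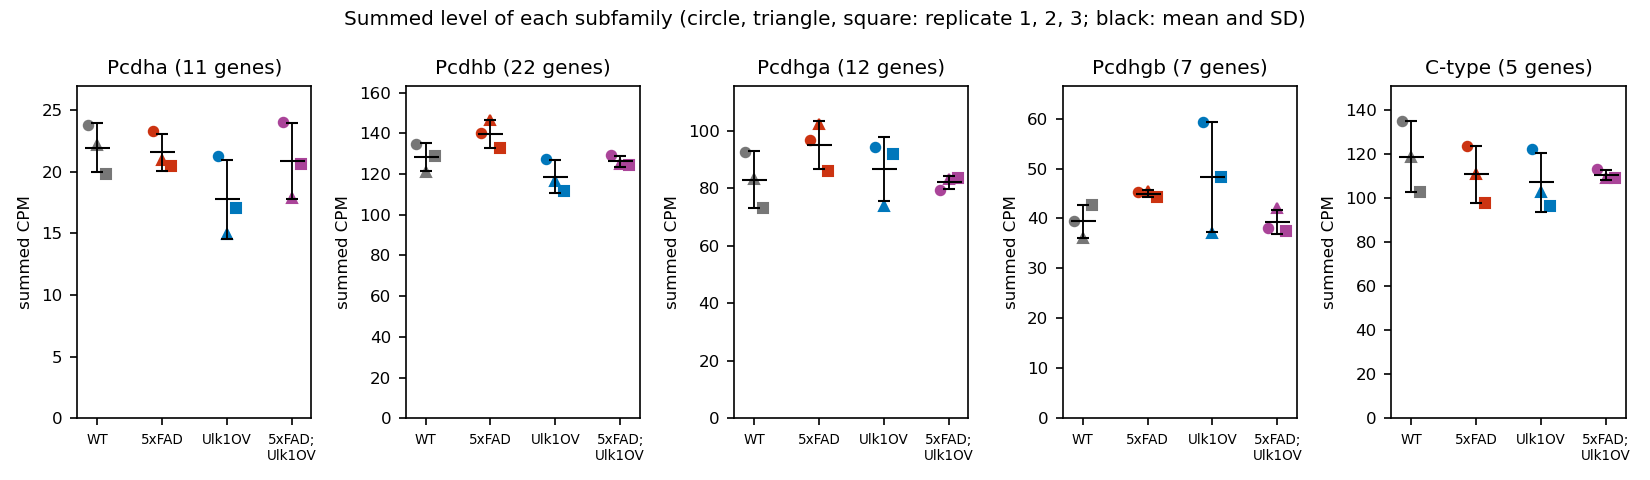
Summed CPM of the members of each subfamily in each library (linear axis from 0), by group, with mean and SD of 3 libraries in black. Pcdhgb sums of the Ulk1OV group spread from 37.2 to 59.3 CPM, while the 5xFAD libraries lie between 44.2 and 45.4 CPM.

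Single genes were compared in 4 pairs of groups and in their interaction, with edgeR's quasi-likelihood test and Benjamini-Hochberg adjustment over all 17227 genes tested, and an adjusted p under 0.05 counts as a call. The 5xFAD against WT comparison asks what the amyloid transgenes change. None of the 54 tested protocadherins was called, against 0% of all genes. DESeq2 called 0 as well (0.887% of all genes), and 3 members had an unadjusted edgeR p under 0.05, against 12.4% of all genes. Of the 54 genes, 38 had a log2 fold change above 0 and the median was 0.08, where 50.5% of all genes were above 0. With each library left out in turn, the count ran from 31 of 55 (without 5xFAD replicate 2) to 43 of 55 (without 5xFAD replicate 3). Members share exons and libraries, so their signs are not separate observations. All 11 tested Pcdhga genes were above 0, from 0.03 to 0.56, and 2 of them had an unadjusted p under 0.05. In 4 genes, Pcdhga3, Pcdhga8, Pcdhb5 and Pcdha3, every 5xFAD library lay above every WT library, against 19.5% of all genes with groups that did not overlap in either direction. Summed markers of meningeal fibroblasts (7 of 7 tested, none at 0 in every library) were lower in 5xFAD, 99.0 to 196 CPM, than in WT, 208 to 295 CPM, and mitochondrial genes took 5.52 to 6.98% of counts in 5xFAD and 5.05 to 5.42% in WT. Their part in these values, the counts of genes above 0 included, was not tested.

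Adding ULK1 overexpression to 5xFAD called no protocadherin in the comparison of 5xFAD;Ulk1OV with 5xFAD, against 0.0464% of all genes, and 3 had an unadjusted p under 0.05 (17.4% of all genes). DESeq2 called Pcdhb5 and Pcdhb19, both lower (5.45% of all genes). The signs were mostly negative: 38 of 54 members lay below 0, with a median of -0.13 beside -0.00 over all genes. With each library left out in turn, 8 to 21 members lay above 0. This comparison shares the 5xFAD libraries with the one before, so the opposite signs are not separate observations. Pcdhb7, Pcdhga8, Pcdhb19, Pcdhb5, Pcdha3 and Pcdhb21 were lower in every 5xFAD;Ulk1OV library than in any 5xFAD library, and Pcdhb1 was higher in every one, together 7 of 54 against 22.2% of all genes. Leaving out the library labelled 5xFAD;Ulk1OV replicate 3 again gave 0 called members, against 0.0682% of all genes. Of the 55 members then tested, 41 lay below 0, with a median of -0.19, and the groups did not overlap for 9 of the 54 members, against 37.6% of all genes. Mitochondrial genes took 4.03 and 4.17% of counts in the other 2 libraries of the group, below all 5xFAD libraries, and 5.97% in replicate 3. Their part was not tested.

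ULK1 overexpression alone, Ulk1OV against WT, called 891 genes (5.17% of all genes) but none of the 54 protocadherins. Of the members, 9 had an unadjusted p under 0.05, against 24.1% of all genes, and DESeq2 called Pcdhb9, which was lower, and Pcdhb5, which was higher (10.8% of all genes). In this comparison 26 members were above 0 and 28 below, with a median of -0.03. By subfamily, all 5 C-type genes were below 0, from -0.39 to -0.07, and 8 of 9 Pcdha genes were below 0, with a median of -0.24 for Pcdha. Of all genes, 50.4% were above 0. An unadjusted p under 0.05 was found for 0 of these C-type genes and 2 of these Pcdha genes. Their signs are not separate observations, since members share exons and libraries. The groups did not overlap for Pcdhb5 and Pcdhgb8, which were higher, and for Pcdhb16, Pcdhb4, Pcdha7 and Pcdha6, which were lower, against 29.5% of all genes. Leaving out 5xFAD;Ulk1OV replicate 3, a library of neither group that enters the low-count filter, the scaling and the estimate of spread, 0 members were called in Ulk1OV against WT (6.72% of all genes) and 0 in 5xFAD against WT (0.017% of all genes).

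Some other features of the tissue also differed between the Ulk1OV and WT groups. Mural cell markers (6 of 6 tested) summed to 91.7 to 107 CPM in Ulk1OV and 140 to 192 CPM in WT. Meningeal fibroblast markers were at 111 to 153 CPM against 208 to 295 CPM. Dentate granule cell markers (5 of 5 tested) were higher, 298 to 343 CPM against 204 to 289 CPM, and so were astrocyte markers (7 of 7 tested), 5971 to 6317 CPM against 5091 to 5721 CPM, and ependymal markers (4 of 4 tested), 79.6 to 104 CPM against 53.9 to 71.0 CPM. None of these markers was at 0 in every library. The summed markers of neurons, pyramidal cells, the oligodendrocyte lineage, microglia, endothelium, choroid plexus and serotonergic neurons overlapped between Ulk1OV and WT. Of all single genes, 29.5% did not overlap in this pair. Mitochondrial genes took 6.40 to 8.76% of counts in Ulk1OV and 5.05 to 5.42% in WT. Their part in the protocadherin values was not tested.

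In 5xFAD;Ulk1OV against Ulk1OV, 1 member, Pcdhb5, was called and it fell, against 6.1% of all genes called. Unadjusted p-values under 0.05 were found for 8 members (24.8% of all genes), and DESeq2 called Pcdhb9, which was higher, and Pcdhb5 (12.7% of all genes). There were again 26 members above 0 and 28 below, with a median of -0.01 for members and for all genes. Pcdhb9, Pcdhb13 and Pcdha7 were higher and Pcdhb19, Pcdhb5 and Pcdhb6 were lower without overlap, against 27.6% of all genes. Without the library labelled 5xFAD;Ulk1OV replicate 3, 2 members were called, Pcdhb5 and Pcdha7, against 8.97% of all genes, 30 of 55 lay above 0, and 13 of 54 did not overlap, against 46.8% of all genes. Mitochondrial genes took 4.03 to 5.97% of counts in 5xFAD;Ulk1OV, below Ulk1OV, and mural cell markers summed to 121 to 196 CPM, above Ulk1OV. Their part was not tested.

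**Figure D3:**
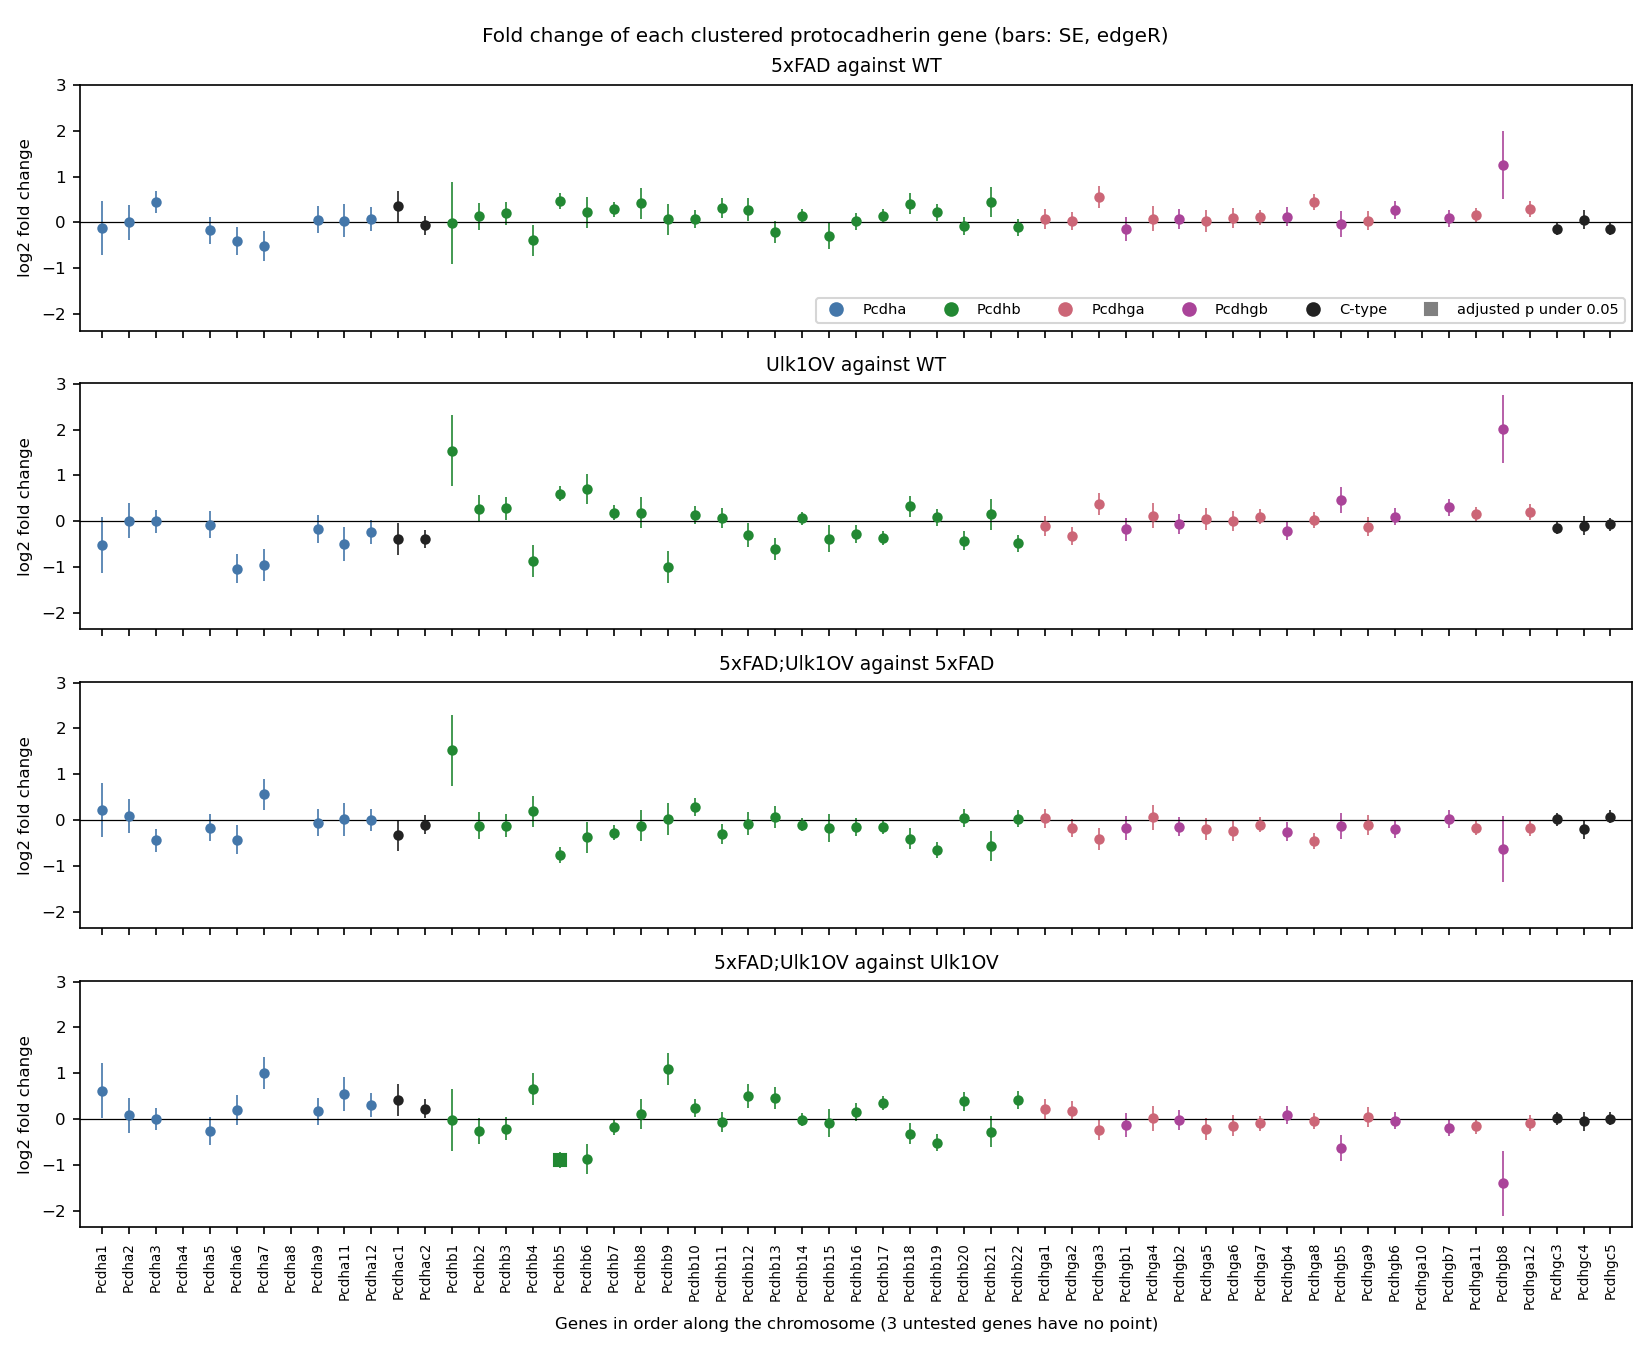
Log2 fold change with its SE (edgeR) of the 54 tested genes in order along the chromosome, 1 panel per comparison, coloured by subfamily; a square marks an adjusted p under 0.05. The only square is Pcdhb5 in 5xFAD;Ulk1OV against Ulk1OV, at -0.90, and Pcdhgb8 has the longest error bars among the gamma genes.

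Pcdhb5, the member called in the preceding comparison, is a beta gene on chromosome 18 from 37320381 to 37323915, and none of its 3535 exon bases is covered by another gene model. Its level was 4.82, 4.14 and 5.16 CPM in WT replicates 1 to 3, 7.01, 6.06 and 6.45 CPM in 5xFAD, 8.17, 7.43 and 5.88 CPM in Ulk1OV, and 3.74, 3.94 and 3.84 CPM in 5xFAD;Ulk1OV, from 67 to 131 counts per library. The 3 libraries labelled 5xFAD;Ulk1OV were below the other 9, and those labelled 5xFAD or Ulk1OV alone were above all WT libraries. Replicate 3 of 5xFAD;Ulk1OV, whose App and Prnp were at the level of libraries without 5xFAD, lay between the other two of its group.

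The interaction compares the effect of Ulk1OV in 5xFAD mice with its effect in mice without 5xFAD. Pcdhb5 was the only one of 54 members called, against 12.8% of all genes, with a log2 difference of -1.36 (SE 0.25, edgeR adjusted p = 0.00737). Over the alternatives its adjusted p ran from 0.000138 to 0.0224, and it was -1.34 on leaving out 5xFAD;Ulk1OV replicate 3 (edgeR adjusted p = 0.00914). Its single effects were a log2 fold change of 0.47 for 5xFAD against WT (SE 0.17, edgeR adjusted p = 0.314) and 0.60 for Ulk1OV against WT (SE 0.17, edgeR adjusted p = 0.0594). Against 5xFAD the 5xFAD;Ulk1OV group was at -0.76 (SE 0.18, edgeR adjusted p = 0.0804), or -0.74 without its replicate 3 (edgeR adjusted p = 0.112), and against Ulk1OV it fell by 0.90 on the log2 scale (SE 0.18, edgeR adjusted p = 0.0181). That last call was lost without 5xFAD;Ulk1OV replicate 1 (edgeR adjusted p = 0.0768), 5xFAD;Ulk1OV replicate 2 (0.0807), Ulk1OV replicate 1 (0.0510) or Ulk1OV replicate 3 (0.0922), and was kept without 5xFAD;Ulk1OV replicate 3 (0.0224). In the same order, the 4 fits that lost it called 0, 0, 386 and 0 of all genes in this comparison. The log2 fold change of Pcdhb5 in them was -0.88, -0.91, -0.79 and -1.02.

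Unadjusted p-values under 0.05 for the interaction were found for 8 members, against 29.4% of all genes, and DESeq2 called Pcdhb5 and Pcdha7 (17.5% of all genes). Members lay on both sides of 0, 25 above and 29 below, with a median of -0.06. Without the library labelled 5xFAD;Ulk1OV replicate 3, edgeR called 2 members, Pcdhb5 and Pcdha7, against 14.4% of all genes, and 24 of 55 members lay above 0. The fold changes of the 54 members had Pearson correlations with GC content and exon length between -0.19 and 0.15 over the 5 comparisons, a description across genes that share exons and libraries.

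**Figure D4:**
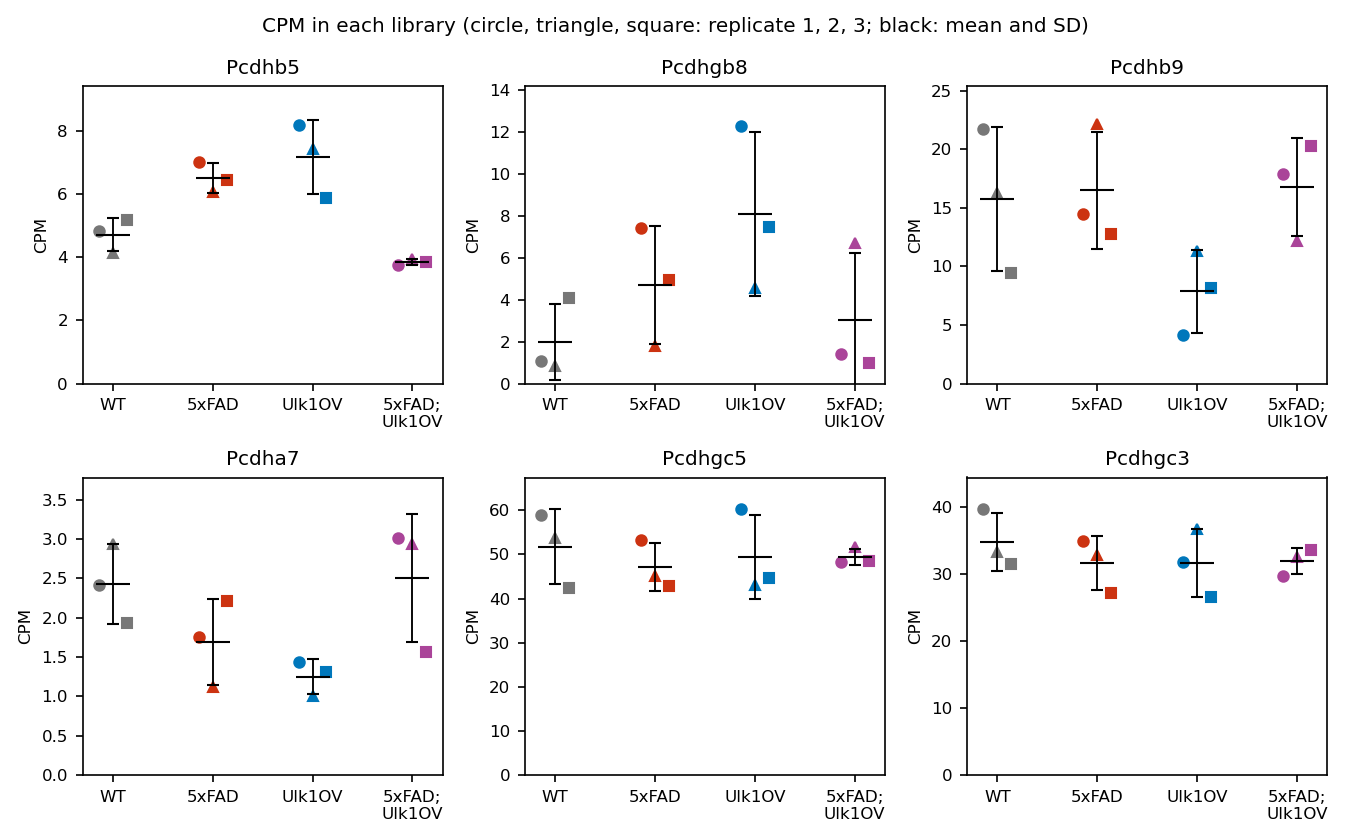
CPM in each library for 6 clustered protocadherins (linear axes from 0), by group, with mean and SD of 3 libraries in black; SD bars that reach below 0 end at the axis. Pcdhb5 lies between 3.74 and 3.94 CPM in 5xFAD;Ulk1OV, below every other library, whereas Pcdhgc5 and Pcdhgc3 overlap between all groups.

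Pcdhb19, another beta gene, had 5.88, 7.19 and 6.24 CPM in WT, 8.20, 6.12 and 8.16 CPM in 5xFAD, 8.30, 6.19 and 5.99 CPM in Ulk1OV, and 4.81, 4.96 and 4.51 CPM in 5xFAD;Ulk1OV. As with Pcdhb5, the 3 libraries labelled 5xFAD;Ulk1OV were the lowest of all, and the lowest of them was replicate 3, the one that went against its label. Its log2 fold change against 5xFAD was -0.65 (SE 0.18, edgeR adjusted p = 0.112) and its interaction -0.74 (SE 0.26, edgeR adjusted p = 0.0763). Without that library they were -0.60 (edgeR adjusted p = 0.182) and -0.67 (edgeR adjusted p = 0.124). With all libraries and correction for GC content and length they were -0.45 (edgeR adjusted p = 0.412) and -0.39 (edgeR adjusted p = 0.446).

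The neighbours of Pcdhb5 did not share one direction. Pcdhb4, 5′ of it, had 3.76, 3.05 and 3.74 CPM in WT and 1.56, 1.89 and 2.34 CPM in Ulk1OV, without overlap, a log2 fold change of -0.86 (SE 0.35, edgeR adjusted p = 0.149). Pcdhb6, 3′ of it, had 3.11, 2.07 and 5.44 CPM in WT and 7.18, 4.84 and 5.34 CPM in Ulk1OV, a log2 fold change of 0.71 (SE 0.33, edgeR adjusted p = 0.207). WT replicate 3 was inside the range of the Ulk1OV libraries for Pcdhb6. In 5xFAD, Pcdhb4 was at 4.13, 2.41 and 1.49 CPM and Pcdhb6 at 4.80, 2.64 and 4.91 CPM, both overlapping WT. In 5xFAD;Ulk1OV they were at 3.69, 3.41 and 2.06 CPM and at 2.74, 3.30 and 3.45 CPM. Pcdhb6 was lower in every library of this group than in any Ulk1OV library, like Pcdhb5, while Pcdhb4 overlapped. Against Ulk1OV, Pcdhb6 was at -0.87 (edgeR adjusted p = 0.124) and Pcdhb4 at 0.66 (0.262). Their interactions were -1.08 (0.140) and 1.05 (0.169). Without 5xFAD;Ulk1OV replicate 3, Pcdhb6 was at -0.92 (0.145) and -1.12 (0.158), and Pcdhb4 at 0.89 (0.131) and 1.29 (0.0883). Both genes were chosen for their position beside Pcdhb5.

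Pcdhb9, the most abundant beta gene, had 21.7, 16.2 and 9.41 CPM in WT, 14.5, 22.2 and 12.8 CPM in 5xFAD, 4.18, 11.3 and 8.12 CPM in Ulk1OV, and 17.9, 12.1 and 20.3 CPM in 5xFAD;Ulk1OV. The Ulk1OV libraries were the low ones, but WT replicate 3 lay within their range. Ulk1OV against WT gave a log2 fold change of -1.002 (SE 0.35, edgeR adjusted p = 0.103; DESeq2 adjusted p = 0.0347), and 5xFAD;Ulk1OV against Ulk1OV gave 1.09 (SE 0.35, edgeR adjusted p = 0.0788; DESeq2 adjusted p = 0.0177). The edgeR adjusted p of the second was 0.0382 without Ulk1OV replicate 2 and 0.138 on leaving out 5xFAD;Ulk1OV replicate 3.

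Among the alpha genes, Pcdha7 had 2.41, 2.94 and 1.93 CPM in WT, 1.75, 1.12 and 2.21 CPM in 5xFAD, 1.44, 1.003 and 1.31 CPM in Ulk1OV, and 3.02, 2.93 and 1.56 CPM in 5xFAD;Ulk1OV. Every Ulk1OV library was below every WT and every 5xFAD;Ulk1OV library. The log2 fold change of 5xFAD;Ulk1OV against Ulk1OV was 1.0004 (SE 0.34, edgeR adjusted p = 0.0899) and the interaction 1.52 (SE 0.48, edgeR adjusted p = 0.0521). Leaving out the library labelled 5xFAD;Ulk1OV replicate 3, the lowest of its group, moved these to 1.26 (edgeR adjusted p = 0.0348) and 1.79 (edgeR adjusted p = 0.0213). Pcdha6 had 2.06, 2.83 and 1.70 CPM in WT, 1.24, 1.68 and 2.04 CPM in 5xFAD, 1.06, 1.06 and 1.09 CPM in Ulk1OV, and 1.17, 0.959 and 1.56 CPM in 5xFAD;Ulk1OV. WT stood above Ulk1OV without overlap, a log2 fold change of -1.03 (SE 0.31, edgeR adjusted p = 0.0684). Both alpha genes rest on 17 to 55 counts per library.

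Of the gamma A genes, Pcdhga8 had 9.46, 8.06 and 7.37 CPM in WT, 10.9, 11.4 and 11.5 CPM in 5xFAD, 10.05, 7.14 and 8.06 CPM in Ulk1OV, and 9.33, 8.63 and 6.51 CPM in 5xFAD;Ulk1OV. The 5xFAD libraries were above all others. Its log2 fold change was 0.44 against WT (SE 0.17, edgeR adjusted p = 0.325), and 5xFAD;Ulk1OV against 5xFAD gave -0.46 (SE 0.17, edgeR adjusted p = 0.192), which became -0.31 (edgeR adjusted p = 0.373) without the library labelled 5xFAD;Ulk1OV replicate 3. Pcdhga3 had 9.52, 8.61 and 6.58 CPM in WT, 14.1, 9.99 and 12.3 CPM in 5xFAD, 12.3, 6.96 and 12.7 CPM in Ulk1OV, and 8.94, 11.2 and 7.12 CPM in 5xFAD;Ulk1OV. Only 5xFAD and WT did not overlap, with a log2 fold change of 0.56 (SE 0.24, edgeR adjusted p = 0.366).

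Pcdhgb8, on chromosome 18 from 37761801 to 37841870 and annotated as a polymorphic pseudogene, a gene that is intact in some strains and disrupted in others, varied most between libraries of one group. It had 1.06, 0.817 and 4.08 CPM in WT, 7.41, 1.80 and 4.96 CPM in 5xFAD, 12.3, 4.54 and 7.46 CPM in Ulk1OV, and 1.40, 6.71 and 1.002 CPM in 5xFAD;Ulk1OV. The highest library was 15.0 times the lowest, where the median of this ratio over members was 1.95, and within 5xFAD;Ulk1OV the ratio was 6.70. Only Ulk1OV and WT did not overlap, with a log2 fold change of 2.02 (SE 0.74, edgeR adjusted p = 0.114), and the interaction was -2.65 (SE 1.03, edgeR adjusted p = 0.106), or -2.21 without 5xFAD;Ulk1OV replicate 3 (edgeR adjusted p = 0.161). The fit gave a biological coefficient of variation of 0.602 where genes of that level had 0.241, a ratio at the 99.2 percentile of all genes. Pcdhb9, at 0.295 beside 0.160, was at the 97.6 percentile, and Pcdhb5, at 0.146 beside 0.226, at the 4.16 percentile. Ulk1OV replicate 1 had the highest Pcdhgb8 and the lowest Pcdhb9 of all libraries, and WT replicate 3 and 5xFAD;Ulk1OV replicate 2 did likewise within their groups. In 5xFAD, the library with the highest Pcdhgb8 was replicate 1, and that with the lowest Pcdhb9 was replicate 3. Ulk1OV replicate 1 and WT replicate 3 also held the highest sums of choroid plexus markers, whereas 5xFAD replicate 1 and 5xFAD;Ulk1OV replicate 2 did not. The strain of each mouse was not given in the sources used here, and the part of either in these values was not tested.

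Genes that act on or with protocadherins were read from 3 lists. The first holds 26 genes of promoter choice and chromatin, among them CTCF, cohesin subunits and DNA methyltransferases. In 5xFAD against WT edgeR called 0 of 26 (8 with an unadjusted p under 0.05, beside 12.4% of all genes). In 5xFAD;Ulk1OV against 5xFAD it also called 0 (7 with an unadjusted p under 0.05, beside 17.4% of all genes). DESeq2 called 0 and 2 of the list in these comparisons, beside 0.887% and 5.45% of all genes. In Ulk1OV against WT 3 of 26 rose and 0 fell, beside 5.17% of all genes called in either direction, with a list median log2 fold change of 0.14 beside 0.00 over all genes. These were the cohesin subunits Stag1 (36.6 ± 1.04 CPM in WT, 48.6 ± 3.03 CPM in Ulk1OV, n = 3 each; log2 fold change 0.41, edgeR adjusted p = 0.0287) and Stag2 (87.5 ± 2.36 against 121 ± 8.85 CPM; 0.46, edgeR adjusted p = 0.0299), and Smchd1, a chromatin protein known to repress clustered protocadherins (40.0 ± 0.483 against 52.2 ± 4.26 CPM; 0.38, edgeR adjusted p = 0.0402). Stag2 fell in 5xFAD;Ulk1OV against Ulk1OV, by 0.48 on the log2 scale (edgeR adjusted p = 0.0218), the only call of the list there (6.1% of all genes). Without 5xFAD;Ulk1OV replicate 3 its log2 fold change there was -0.57 (edgeR adjusted p = 0.0104).

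For the interaction 0 of the 26 genes were called above 0 and 7 below, where 12.8% of all genes were called in either direction. They were led by Stag2 at -0.70 (edgeR adjusted p = 0.0107), Stag1 at -0.58 (0.0117), Smchd1 at -0.58 (0.0165) and the cohesin regulator Pds5b at -0.53 (0.0170). In the same order, without 5xFAD;Ulk1OV replicate 3, they were at -0.78 (edgeR adjusted p = 0.00563), -0.60 (0.0127), -0.63 (0.0121) and -0.52 (0.0247). Corrected for GC content and length, the list had 1 call above 0 in Ulk1OV against WT, 0 in 5xFAD;Ulk1OV against Ulk1OV and 1 below 0 for the interaction. Of all 17227 genes, 525, 371 and 893 were then called. No gene of this list named above kept its call. In Ulk1OV against WT, Stag1 was at 0.28 (edgeR adjusted p = 0.0665), Stag2 at 0.30 (0.0781) and Smchd1 at 0.26 (0.103). For the interaction, Stag2 was at -0.28 (0.214), Stag1 at -0.26 (0.191), Smchd1 at -0.26 (0.228) and Pds5b at -0.16 (0.443). Without the library labelled 5xFAD;Ulk1OV replicate 3 there were 3 above 0 in Ulk1OV against WT, 1 above and 5 below 0 in 5xFAD;Ulk1OV against Ulk1OV, and 1 above and 8 below 0 for the interaction. Beside these, 6.72%, 8.97% and 14.4% of all genes were called. Over all 12 libraries left out in turn, the list had 0 to 4, 0 to 6 and 2 to 9 calls in these comparisons. The number of all genes called moved as well, from 0 to 1294, 0 to 1629 and 974 to 2596.

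The second list holds 25 genes of protocadherin signalling and processing. Again edgeR called 0 in 5xFAD against WT and 0 in 5xFAD;Ulk1OV against 5xFAD, with 6 of 25 genes at an unadjusted p under 0.05 in each (12.4% and 17.4% of all genes). DESeq2 called 0 and 2 of the list there, beside 0.887% and 5.45% of all genes. In Ulk1OV against WT, 2 of 25 fell, beside 5.17% of all genes called: Aph1a, a subunit of the gamma-secretase that cleaves protocadherins (37.4 ± 3.84 CPM in WT, 25.3 ± 1.37 CPM in Ulk1OV, n = 3 each; -0.56, edgeR adjusted p = 0.0201), and the synaptic adhesion gene Nlgn2 (194 ± 17.9 against 111 ± 17.1 CPM; -0.80, edgeR adjusted p = 0.0272). Both rose in 5xFAD;Ulk1OV against Ulk1OV, Aph1a by 0.51 and Nlgn2 by 0.71 (edgeR adjusted p = 0.0163 and 0.0290). For the interaction 4 of 25 were called, beside 12.8% of all genes: 2 above 0, Aph1a at 0.77 and Nlgn2 at 1.05, and 2 below 0, the actin regulator subunit Nckap1 at -0.48 and Pdcd10 at -0.51 (edgeR adjusted p = 0.00662, 0.0144, 0.0350 and 0.0480). The last 2 calls were lost without the library labelled 5xFAD;Ulk1OV replicate 3 (edgeR adjusted p = 0.0706 and 0.0867). Without it the interaction was 0.80 for Aph1a (edgeR adjusted p = 0.00669) and 1.26 for Nlgn2 (0.00297). Against Ulk1OV, 5xFAD;Ulk1OV was then at 0.53 for Aph1a (edgeR adjusted p = 0.0153) and 0.91 for Nlgn2 (0.00578). Corrected for GC content and length, the interaction calls of Nlgn2 (0.53, edgeR adjusted p = 0.0821), Nckap1 (-0.33, edgeR adjusted p = 0.170) and Pdcd10 (-0.08, edgeR adjusted p = 0.747) were lost and that of Aph1a was kept (0.55, edgeR adjusted p = 0.0308). The call of Nlgn2 in 5xFAD;Ulk1OV against Ulk1OV was lost under the same correction (0.38, edgeR adjusted p = 0.106) and with only the libraries of both groups fitted (edgeR adjusted p = 0.0629). Pdcd10 also lost its call with DESeq2 size factors (edgeR adjusted p = 0.0535) and with a replicate block (0.0571). Over all libraries left out in turn, the list had 0 to 2 calls in Ulk1OV against WT, 0 to 3 in 5xFAD;Ulk1OV against Ulk1OV and 2 to 4 for the interaction. The same fits called 0 to 1294, 0 to 1629 and 974 to 2596 of all genes.

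The third list holds 24 non-clustered protocadherins and relatives, of which 23 were tested, Pcdh12 being too low. No gene of it was called by edgeR in the 4 comparisons between groups, with 2 to 4 genes at an unadjusted p under 0.05 (12.4 to 24.8% of all genes). DESeq2 called 0 or 1 of the list (0.887 to 12.7% of all genes). Without the library labelled 5xFAD;Ulk1OV replicate 3, 1 gene was called below 0 in Ulk1OV against WT (6.72% of all genes) and 3 above 0 in 5xFAD;Ulk1OV against Ulk1OV (8.97% of all genes). Over all libraries left out in turn, the list had 0 to 2 calls in Ulk1OV against WT, 0 to 3 in 5xFAD;Ulk1OV against Ulk1OV and 0 to 3 for the interaction. Those fits called 0 to 1294, 0 to 1629 and 974 to 2596 of all genes. For the interaction 1 of 23 was called with all libraries, beside 12.8% of all genes: Pcdh1, at 0.95 (SE 0.29, edgeR adjusted p = 0.0496), with 201 ± 35.2 CPM in WT, 165 ± 35.0 CPM in 5xFAD, 123 ± 34.9 CPM in Ulk1OV and 196 ± 36.8 CPM in 5xFAD;Ulk1OV (n = 3 each). Corrected for GC content and length it was 0.44 (edgeR adjusted p = 0.268), without 5xFAD;Ulk1OV replicate 3 it was 1.12 (edgeR adjusted p = 0.0230), and over the leave-one-out fits its adjusted p ran from 0.0191 to 0.126.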

How the data were processed

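RNA-seq of mouse hippocampus gave 12 libraries; the labels put 3 into each of 4 groups. The deposited values are raw read counts per gene. Per the submitters' processing notes, which give no versions, FastQC, Trim Galore, HISAT2, SAMtools, featureCounts, DESeq2 and the build mm10 are listed; annotation, strand and handling of reads in several genes were not given in the sources used here. Libraries were made with a NEBNext Ultra kit, per the labels' protocols. In R 4.3.3, edgeR 4.0.16 kept 17227 genes by its default filter, scaled by TMM and fitted 1 mean per group to all 12 libraries; Benjamini-Hochberg adjustment ran over all of them, with calls at 0.05. The SE is the log2 fold change over the square root of F. The fit was tested on simulated data. CPM use library totals (16149992 to 18547132 counts) multiplied by TMM factors. Alternatives were DESeq2 1.42.0, its size factors, no low-count filter, a replicate block, the compared groups alone, loess offsets (span 0.4) for GC content and length (known for 17111 genes), each library left out, and subfamilies summed. The replicate numbers were checked and did not pair libraries.

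Members and lists were chosen with earlier results of these data known. Named with every value are the C-type genes, the highest gene of each other subfamily, and the called members or 3 with the smallest p in each comparison; list genes are named up to 4 per list and comparison, called ones first. Pcdhgb8, Pcdhb4 and Pcdhb6 fall outside that rule and were chosen after their values were seen.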

Additional observations from a re-analysis of the deposited data

Results flagged for a closer look

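For Pcdhb5 the difference made by Ulk1OV was not the same in libraries labelled with and without 5xFAD, by a test of the difference itself. The interaction was -1.36 on the log2 scale (SE 0.25, edgeR quasi-likelihood adjusted p = 0.00737), and this p covers only spread between libraries. Pcdhb5 was 1 of 54 members called, where 12.8% of all genes were called for the interaction. Its fitted biological coefficient of variation was low, 0.146 where genes of that level had 0.226, a ratio at the 4.16 percentile of all genes. The 3 libraries labelled 5xFAD;Ulk1OV lay below the other 9. One of them, replicate 3, had App and Prnp at the level of libraries without 5xFAD, and without it the interaction was -1.34 (edgeR adjusted p = 0.00914). Groups of 3 libraries are too small to look for single outlying libraries.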

How the results depend on the processing

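The count of called members changed in these settings. Without a filter on low counts it was 1 in 5xFAD against WT (Pcdhgb8), 2 in Ulk1OV against WT, 4 in 5xFAD;Ulk1OV against Ulk1OV and 5 for the interaction, beside 1.74%, 6.57%, 6.63% and 8.97% of all genes. DESeq2 called 2 in 5xFAD;Ulk1OV against 5xFAD, 2 in Ulk1OV against WT, 2 in 5xFAD;Ulk1OV against Ulk1OV and 2 for the interaction. These stood beside 5.45%, 10.8%, 12.7% and 17.5% of all genes. Leaving out each library gave 0 to 2 in 5xFAD;Ulk1OV against Ulk1OV and 1 to 3 for the interaction, and 0 in the other comparisons. The same fits called 0 to 1629 and 974 to 2596 of all genes, with 17592 to 17642 genes tested. In the other comparisons they called 0 to 39 (5xFAD against WT), 0 to 260 (5xFAD;Ulk1OV against 5xFAD) and 0 to 1294 genes (Ulk1OV against WT). Without WT replicate 3 the interaction called Pcdhb5, Pcdhgb8 and Pcdhb6, 3 of 55 members, beside 1893 of 17598 genes. With each subfamily summed to 1 row, edgeR called 0 of 5 rows in 5xFAD;Ulk1OV against Ulk1OV and 0 for the interaction, with 1 row at an unadjusted p under 0.05 in each. Of all 17178 rows then tested, 1061 and 2203 were called, and 4267 and 5061 had an unadjusted p under 0.05. Median levels per kb moved with all exon bases to 0.328 for Pcdha, 1.52 for Pcdhga, 0.967 for Pcdhgb and 3.26 for C-type genes. The cause of each move was not tested. Subfamily sums moved by less than 1 SD on plain library totals, where 4 rather than 5 of 30 pairs of groups did not overlap, Pcdhgb in 5xFAD against WT being lost. Overlaps on plain totals or without 5xFAD;Ulk1OV replicate 3 were added after seeing the data. Replicate numbers did not pair libraries: 4 of 18 pairs with one number had deviations correlated over 0.1 (range -0.18 to 0.21), and 5 of 12 libraries correlated best with their own number. With a replicate block, the members called were 1, 1 and, in the other 3 comparisons, 0, as without it, the calls being in 5xFAD;Ulk1OV against Ulk1OV and for the interaction. For the 3 members with the smallest p in each comparison, no fold change took the opposite sign on leaving out any of the 12 libraries. Some fold changes near 0 of named genes did so without 5xFAD;Ulk1OV replicate 3. Pcdhga8 in 5xFAD;Ulk1OV against Ulk1OV went from -0.04 to 0.11, and Pcdhb9 in 5xFAD;Ulk1OV against 5xFAD from 0.02 to -0.12. Counts of 17 to 55 per library limit Pcdha6 and Pcdha7.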
